A study of Homo sapiens with 2 samples.

Results

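SLC38A12 was the single protein-coding gene with a usable cluster among the amino acid transporter families SLC1, SLC3, SLC6, SLC7, SLC36, SLC38 and SLC43. Members were chosen by symbol, from the protein-coding genes that the platform's probe table names and the deposited values cover, with no filter on level. The RefSeq table lists 61 protein-coding genes whose symbols follow this rule. Of these, 1 was found, out of 11916 named protein-coding genes with a value, and the other 60 are not analysed here. The label of the group, amino acid transporter families, therefore reaches further than these data, and the values below are those of SLC38A12. SLC7A11-AS1 also begins with such a symbol but is a long non-coding RNA gene, so it is not a member.

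The cells were MDA-MB-231, a human line long established from breast cancer, and 2 Affymetrix arrays were hybridised, 1 for each treatment. One group received a miR-544 antagomir, which is a synthetic oligonucleotide against that microRNA, and the other received compound 1. Treatment came first, and 24 hours later the cells went into hypoxia (under 1% oxygen) for 5 days. The series design mentions pooling of 3 samples; cells without either agent, or kept in normal oxygen, are not analysed here. A single array stands for each treatment, so there is no replicate error and no test, and treatment cannot be told apart from pool or hybridisation.

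Amino acid transporters of the SLC families move amino acids and related compounds across the plasma membrane and the membranes of organelles. Those of SLC38 are named as sodium-coupled neutral amino acid transporters, several of which carry glutamine. SLC7 light chains work as pairs with an SLC3 heavy chain, and SLC6 holds many neurotransmitter transporters. In cancer cells amino acid supply is read by the kinase complex mTORC1 at the lysosome and by the kinase GCN2, which acts through the transcription factor ATF4. SLC38A12 carries the older symbol TMEM104 in the RefSeq table.

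The labels say miR-544 with no further letter, and the RefSeq table for GRCh38.p14 holds both hsa-miR-544a and hsa-miR-544b. Their mature sequences are shown because the antagomir is aimed at miR-544, so a reader can see what that name may cover. Capitals mark the seed, bases 2 to 8 from the 5′ end, by which a microRNA recognises its targets.
hsa-miR-544a: aUUCUGCAuuuuuagcaaguuc
hsa-miR-544b: aCCUGAGGuugugcauuucuaa
Both are 22 bases long and their seeds differ, so they do not form a group by shared seed. Which of them the antagomir matches is not stated in the labels.

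On a log2 scale SLC38A12 measured 8.73 with the antagomir and 8.89 with compound 1, and both values lay above the entry level of 5.60, the median of the mean levels of all clusters. Its level was thus higher on the compound 1 array, by 0.16 on the log2 scale or 1.12-fold. The gene has 1 cluster on this array, so no second cluster shows the same difference. In pooled RNA, fewer cells with a transcript and less of it per cell cannot be told apart. SLC38A12 did not pass 1.2-fold, the size of difference counted here. Of all 11916 protein-coding genes, 8.04% were higher on the compound 1 array past 1.2-fold and 9.05% lower. At 1.1-fold SLC38A12 passed as higher, as did 20.3% of protein-coding genes.

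In the deposited values the direction for SLC38A12 was that of the minority of protein-coding genes. Of these genes 44.0% were higher on the compound 1 array and 54.3% lower, with a median difference of -0.023. After quantile normalization 51.1% were higher and 48.8% lower, so which direction is the minority depends on the scaling. In the deposited values the SLC38A12 difference was larger than that of 83.2% of protein-coding genes. Differences on these arrays varied with level: the median was -0.041 in protein-coding genes at the entry level on either array and 0.069 in those under it on both. The 500 other protein-coding genes nearest to SLC38A12 in mean level had, with the gene itself, a median difference of -0.070 and a robust SD of 0.13. Of these 500 genes, 25 had a larger difference than SLC38A12. The central 95% of these genes, from -0.35 to 0.23, includes SLC38A12, and 9 of them were higher past 1.2-fold. This is a position among genes of these 2 arrays, not a test.

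**Figure D1:**
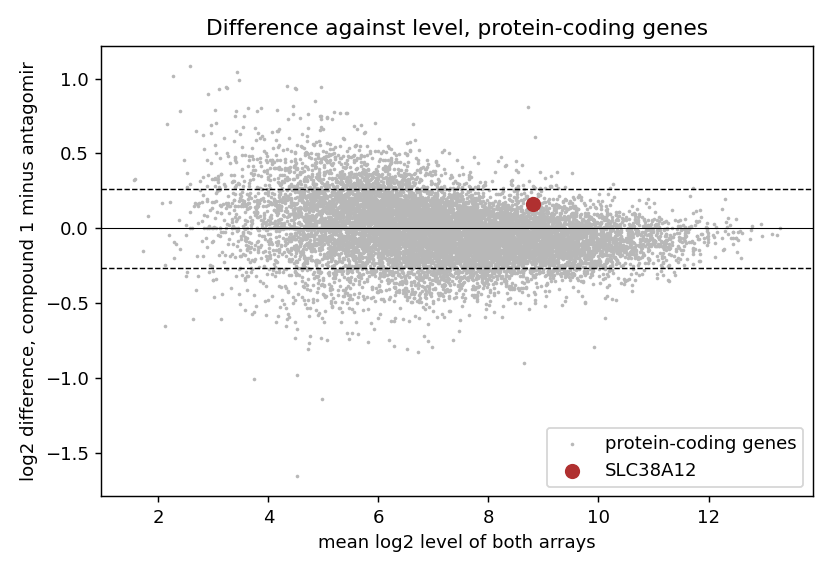
Each grey point is a protein-coding gene, with its mean log2 level on the x axis and its log2 difference, compound 1 minus antagomir, on the y axis. The dashed lines mark 1.2-fold in either direction. The red point of SLC38A12, at a difference of 0.16, lies inside both lines and in the upper part of the genes at its level.

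The sign for SLC38A12 held under each way of scaling that was run, while the size did not stay fixed. Its difference was 0.13 with each array centred on its median, 0.24 after quantile normalization and 0.23 after cyclic loess. It was 0.23 after subtraction of the median of the genes nearest in level. None of these 4 values reaches 0.26, the log2 value of 1.2-fold. SLC7A11-AS1, on the strand opposite the cystine transporter gene SLC7A11, reached the entry level on neither array, with 4.87 and 5.00, and its level says nothing about SLC7A11.

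SLC38A12 was set beside the 21 other protein-coding genes with an SLC symbol that could be measured, which belong to families outside the rule. Of these, 14 were higher on the compound 1 array and 7 lower, where 44.0% and 54.3% of all protein-coding genes were. With each array centred, 13 were higher, and after quantile normalization 16, where 38.2% and 51.1% of all protein-coding genes were. Their median difference was 0.077, against 0.16 for SLC38A12, and 3 of them had a larger difference than it. None passed 1.2-fold in the deposited values, where 8.04% of all protein-coding genes were higher past it and 9.05% lower. With each array centred 0 were higher and 1 lower past it, where 6.24% and 11.6% of all protein-coding genes were. After quantile normalization 2 were higher past it, SLC49A3 and SLC66A1, with differences of 0.27 and 0.28, and 0 lower, where 7.50% and 7.28% of all protein-coding genes were. This list has no test, and its families were not chosen for amino acid transport. SLC66A1, which encodes an exporter of cationic amino acids from the lysosome, was at 7.72 with the antagomir and 7.93 with compound 1 (log2 levels). Its difference of 0.21 exceeded that of SLC38A12 and was likewise higher on the compound 1 array. SLC25A15, a mitochondrial ornithine carrier gene, went the other way, at 7.67 with the antagomir and 7.41 with compound 1. That difference of -0.26 was the lowest of the 21. It was -0.29 with each array centred, past 1.2-fold, and -0.21 after quantile normalization. SLC25A2, the other measured gene of the SLC25 family, was at 6.14 and 6.12 in the same order, a difference of -0.018.

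**Figure D2:**
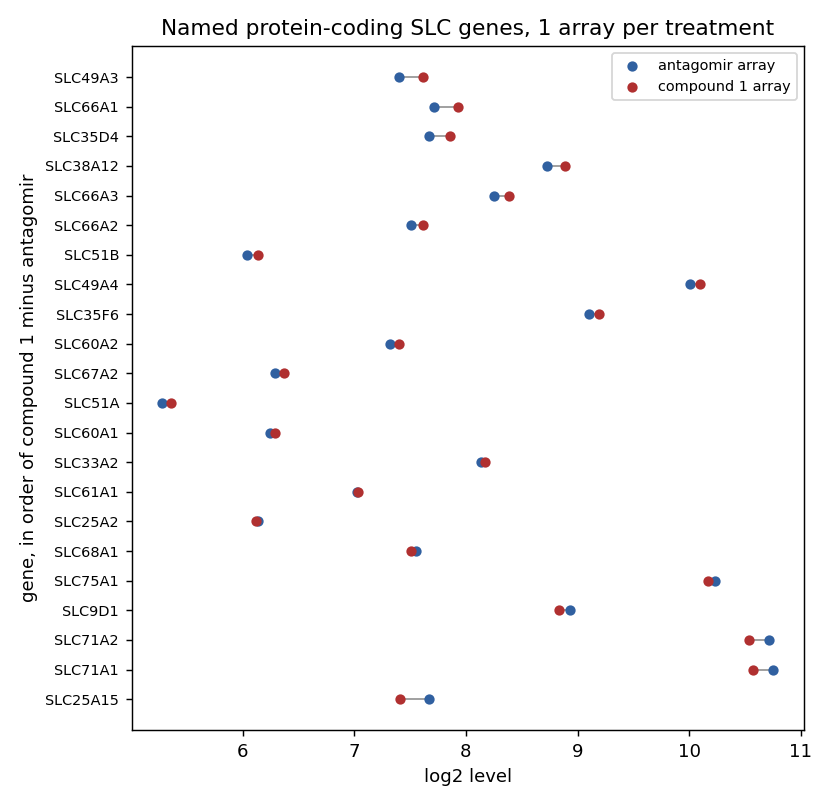
Each row is a named protein-coding SLC gene, SLC38A12 included, and the x axis gives its log2 level. The blue point is the antagomir array and the red point the compound 1 array, so the grey line between them is the difference, and rows are ordered by compound 1 minus antagomir. SLC38A12 is at 8.73 and 8.89, and the lines of all genes are short against the range of levels.

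Enzymes that make or break down amino acids, a list with no transporter in it, differed in the opposite direction to SLC38A12. Of 38 listed enzymes 21 were measured, and 19 of these were lower on the compound 1 array, where 54.3% of all protein-coding genes were lower. That share was higher among genes of high level. Among the genes that reached the 75th percentile of cluster levels on either array, 14 of 16 enzymes were lower and 68.4% of all protein-coding genes. The count of lower enzymes was 15 of 21 after quantile normalization and 16 after cyclic loess, where 48.8% and 51.1% of all protein-coding genes were lower. The median difference of the 21 was -0.099, against -0.023 over all protein-coding genes and -0.041 over those at the entry level. Lower past 1.2-fold were 4 of the 21 (9.05% of all protein-coding genes), and higher 0 (8.04%). The count lower was 5 with each array centred, where 11.6% of all protein-coding genes were lower past 1.2-fold. It was 3 after each of the other 3 scalings. The shares of all protein-coding genes were then 7.28% (quantile normalization), 8.32% (cyclic loess) and 7.87% (nearest genes subtracted). GLUD1, a glutamate dehydrogenase of mitochondria, was at a log2 level of 7.34 with the antagomir and 6.90 with compound 1, a difference of -0.45. PSAT1, an aminotransferase of serine synthesis, was at 10.65 and 10.28 in the same order, a difference of -0.37. SHMT1, which interconverts serine and glycine in the cytosol, was at 8.08 and 7.81. Its difference of -0.27 came to -0.20 after quantile normalization, short of 1.2-fold. The fourth, the proline dehydrogenase gene PRODH, did not reach the entry level, with 5.54 and 5.21. The enzymes on the higher side were ASS1, which makes argininosuccinate, at 0.14, and ODC1, the ornithine decarboxylase of polyamine synthesis, at 0.12.

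Genes listed for amino acid sensing by mTORC1 and GCN2, the GCN2 gene and ATF4 included, had no common direction. Of 38 listed genes 27 were measured, 10 higher and 17 lower on the compound 1 array, where 44.0% and 54.3% of all protein-coding genes were. Their median difference was -0.032, but 0.031 after both quantile normalization and cyclic loess, with 16 genes then higher in each case, where 51.1% and 48.9% of all protein-coding genes were. RRAGC, a Rag GTPase that recruits mTORC1 to the lysosome, was higher by 0.27, from 8.12 to 8.39. It was the 1 gene of this list past 1.2-fold in either direction, where 8.04% of all protein-coding genes were higher past it and 9.05% lower. With each array centred on its median its difference was 0.24 and 0 genes of the list passed. Of all protein-coding genes 6.24% were then higher past it and 11.6% lower. The Rag GTPase gene RRAGA was at 8.42 with the antagomir and 8.25 with compound 1. ATF4 was at 8.95 and 8.83, and the GCN2 gene EIF2AK4 at 9.63 and 9.72, both short of 1.2-fold.

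**Figure D3:**
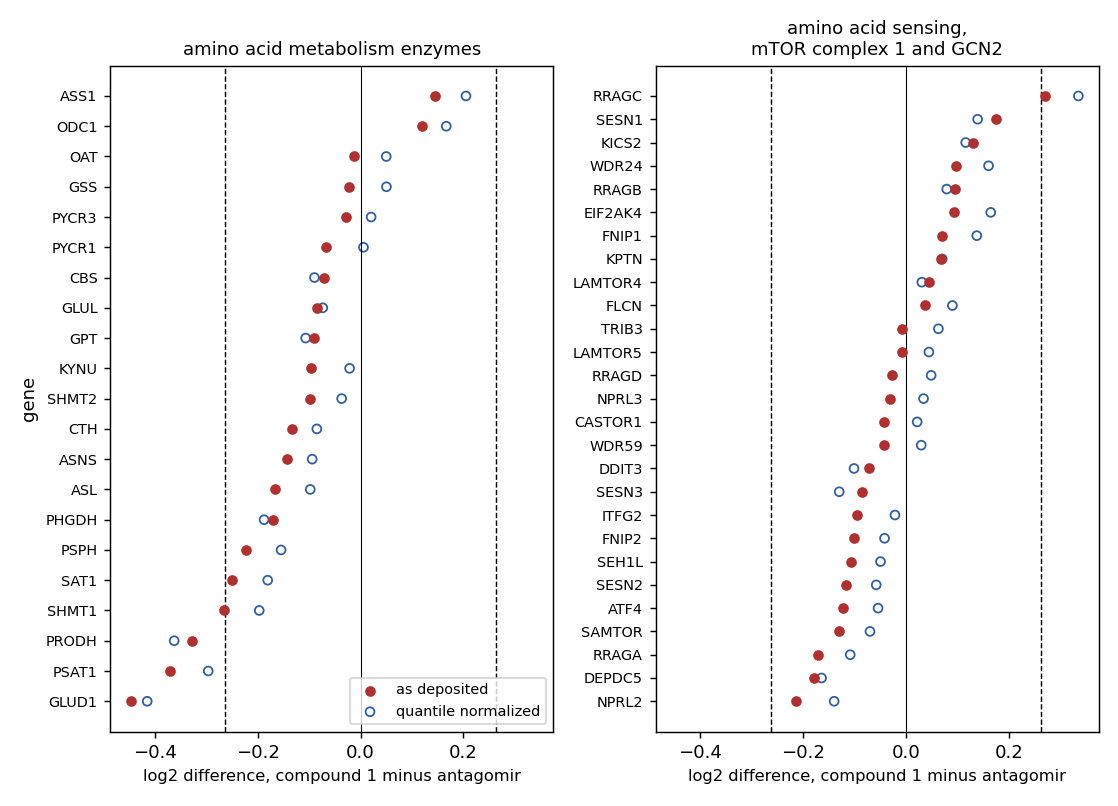
Each row is a measured gene of the enzyme list (left) or the sensing list (right), and the x axis gives the log2 difference, compound 1 minus antagomir. Filled points are the deposited values, open points those after quantile normalization, and dashed lines mark 1.2-fold. In the left panel 19 of 21 filled points lie below 0, and in the right panel 17 of 27 do.

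The core of the C/EBP-ATF response element, TGATGNAAN on either strand with overlaps allowed, was searched in promoter windows of 300 bases around RefSeq start sites. The SLC38A12 window had no match, which says only that these letters are not in it. Of the windows of all protein-coding genes 2.69% had a match, and of the 14 enzymes with a window 1 did, ASNS, the asparagine synthetase gene. Of 24 sensing genes with a window 0 matched. ASNS itself was at log2 levels of 7.60 with the antagomir and 7.45 with compound 1.

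The measured markers listed for the cell line lay above the entry level. So did most protein-coding genes, 9226 of 11916 on both arrays, so lying above it does not identify a cell type. Of 6 listed, the 4 measured (VIM, CD44, AXL and MSN) lay above the entry level on both arrays, with differences between -0.13 and -0.011. Of 7 measured luminal and epithelial markers 4 also lay above it on both arrays (GATA3, EPCAM, KRT8 and KRT18), while FOXA1 did on 1 array and the hormone receptor genes ESR1 and PGR on neither. Differences of these 7 ran from -0.10 to 0.25. Of 6 measured neuronal and glial markers 5 lay above the entry level on both arrays, with differences of the 6 from -0.14 to 0.20. Of 3 leukocyte markers 1 did, CD68, at a difference of -0.0060. The other leukocyte markers, LYZ and CD14, were under the entry level and higher with compound 1 past 1.2-fold, by 0.48 and 0.30. Of all protein-coding genes 8.04% were higher past it. Protein-coding genes under the entry level on both arrays had a median difference of 0.069, against -0.041 for those at it. LYZ and CD14 are thus low values in a range that was shifted upward, and their part in the SLC38A12 difference was not tested.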

How the data were processed

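The deposited table holds 1 log2 value per transcript cluster and array, a gene-level summary per the labels. The values run from 0.37 to 14.20, and folds assume base 2, since no label names the log base, background correction, normalization or software. Array medians were 5.59 and 5.62. The probe table gives 1 symbol for 16098 of the 53617 clusters, several for 0, and leaves 37519 without a name. All 16098 identifiers were found in the RefSeq table (GRCh38.p14), used for symbols and gene types.

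Where a gene had several clusters, the one of highest mean stood for it. Differences are signed as compound 1 minus antagomir. Named are the members, and in the lists the genes at the entry level past 1.2-fold, at most 6 per list. Other genes named (SLC66A1, SLC49A3, SLC25A15, SLC25A2, SLC7A11-AS1, PRODH, ASS1, ODC1, ASNS, RRAGA, ATF4 and EIF2AK4) were chosen after their values were seen. The members and lists were chosen with earlier results of these data known. The calculation was tested on simulated data with larger planted differences. That checks the code, not whether a difference as small as that of SLC38A12 is reliable. Alternatives were 4 scalings, 3 level filters, 2 cluster choices, 2 fold thresholds and leaving out genes whose values are identical on both arrays. Scaling used limma 3.58.1 in R 4.3.3. All other steps used Python 3.11.15 (pandas 2.3.3, numpy 2.4.6), and figures matplotlib 3.10.9. The number of arrays limits the precision.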

Additional observations from a re-analysis of the deposited data

How the results depend on the processing

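The SLC38A12 difference kept its sign in every alternative run and moved by less than the robust SD of genes at its level, from 0.13 with centring to 0.24 after quantile normalization. With 1 member the median is that same value, and filters and cluster choices could not change it. It passed the fold at 1.1-fold only (1 higher). The enzyme median stayed between -0.13 and -0.089. At 1.1-fold 1 of 21 enzymes was higher and 9 lower, where 20.3% and 25.8% of all protein-coding genes were. At 1.5-fold 0 enzymes were lower, where 0.48% of all protein-coding genes were. The median of the sensing genes was -0.061 with centring, 0.031 after quantile normalization, 0.031 after cyclic loess and 0.033 after subtraction of the nearest genes, so its sign depends on the scaling. Of 27 sensing genes 0 were higher past the fold with centring, where 6.24% of all protein-coding genes were. At 1.1-fold 2 were higher and 3 lower, where 20.3% and 25.8% of all protein-coding genes were. At 1.5-fold 0 were higher, where 0.65% of all protein-coding genes were. The planned role groups of 59 transporters and the lists of amino acid response, lysosomal and neurotransmitter transporters gave no value, since no gene of them is named here. Of 13 listed amino acid transporters of other SLC families 1 was measured, SLC66A1. No paired analysis was possible because there is a single array for either treatment.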
